A study of Rattus norvegicus with 18 samples.

Results

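The CXC chemokines Cxcl1, Cxcl2, Cxcl9, Cxcl10, Cxcl11 and Cxcl12 were followed in rat retina. They were chosen by gene symbol, as 6 of the 14506 genes that the array measured with a probe set of a single symbol, and each had 1 probe set. The choice was made with earlier results of these data known. The study asked how dietary saffron and photobiomodulation (PBM, exposure to 670 nm red light) change the retinal response to damaging white light. RNA from 18 retinas of adult Sprague Dawley rats, an albino strain, aged 80 to 120 days, was hybridised to 1 array each, 3 arrays to a group. All rats were raised in cyclic light of 5 lux and ate the vegetable matrix in which saffron was given. PBMLD rats received PBM for 3 min a day over 5 days and then bright light for 24 h. SafLD rats were fed saffron (1 mg/kg/day) during 3 weeks and then received bright light for 24 h. LD rats received bright light for 24 h with no pretreatment. PBM rats and saffron rats received the pretreatment alone, and control rats received neither. The bright light is given as 1000 lux for PBMLD, SafLD and LD, although another label of the LD samples says 100 lux. The arrays measure whole retina, so more cells of a type cannot be told apart from more RNA per cell.

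Chemokines are small secreted proteins that steer leukocytes through receptors on their surface, and the CXC family is named after a pair of cysteines parted by 1 residue. Cxcl1 and Cxcl2 act on the receptor Cxcr2 and attract neutrophils; their genes are classical targets of the transcription factor NF-kB. Cxcl9, Cxcl10 and Cxcl11 are induced by interferons, share the receptor Cxcr3 and attract activated T cells and natural killer cells. Cxcl12 is made constitutively in many tissues and binds Cxcr4 and the scavenger receptor Ackr3. In the retina, Müller cells, microglia and the pigment epithelium can all release chemokines under stress.

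Bright light was accompanied by higher levels of Cxcl10, Cxcl1 and Cxcl11, of which Cxcl10 differed most. With all 9 light-exposed retinas set against all 9 unexposed retinas, Cxcl10 was 7.90-fold higher, Cxcl1 2.67-fold and Cxcl11 2.36-fold. Cxcl9 was 1.44-fold higher, and Cxcl2 and Cxcl12 did not pass the test. In LD against control alone, only Cxcl10 was called, at 19.3-fold. A gene was called where the limma p adjusted over all 29214 probe sets was below 0.05 and the difference exceeded 2-fold. No member was called when PBMLD or SafLD was set against LD. Levels below are log2 intensities from RMA, the normalization used by the authors, on which a difference of 1 is a doubling.

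**Figure D1:**
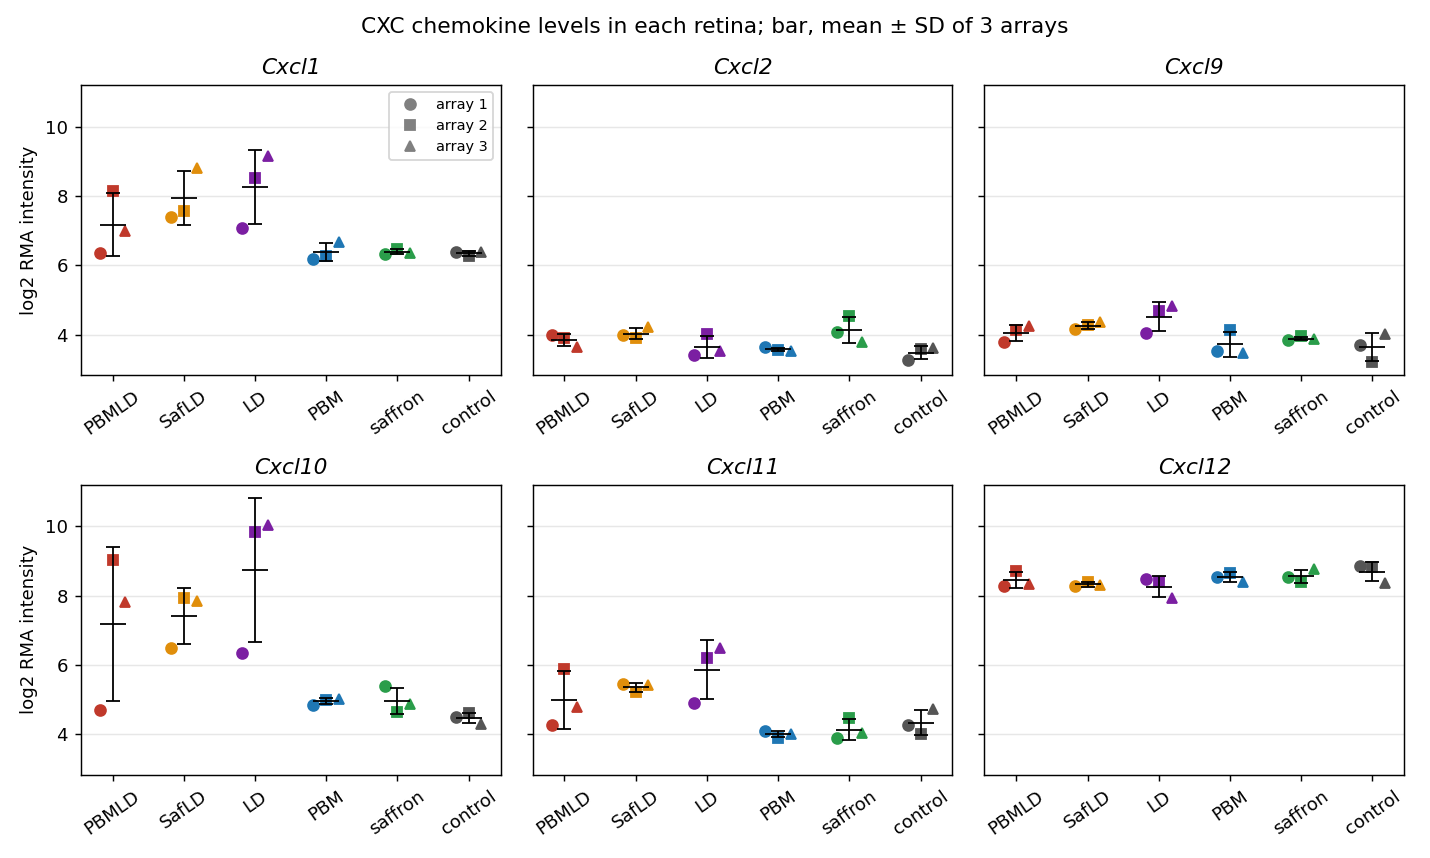
Log2 RMA intensity (y axis) of the 6 chemokines in each of the 18 retinas, by group, with one panel per gene. Symbols mark the array number and bars the mean ± SD of 3 arrays. In LD, 2 retinas reached 9.83 and 10.05 for Cxcl10 and the third 6.35, while control retinas lay between 4.31 and 4.60.

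Cxcl10, an interferon-induced attractant of T cells, was read at 4.71, 9.02 and 7.82 in PBMLD retinas 1, 2 and 3. It was 6.50, 7.92 and 7.85 in SafLD retinas and 6.35, 9.83 and 10.05 in LD retinas. Unexposed retinas gave 4.85, 4.99 and 5.02 with PBM, 5.38, 4.66 and 4.87 with saffron, and 4.50, 4.60 and 4.31 in control. Every SafLD and LD retina thus lay above every unexposed retina, whereas PBMLD retina 1 lay within the range of the unexposed ones. The group means were 7.18 ± 2.22 in PBMLD, 7.42 ± 0.80 in SafLD, 8.74 ± 2.08 in LD, 4.96 ± 0.09 in PBM, 4.97 ± 0.37 in saffron and 4.47 ± 0.15 in control (SD, n = 3 each). LD exceeded control by 4.27 ± 0.89 (SE; limma adjusted p = 0.0240, 95% interval 2.39 to 6.15), and all 3 LD retinas were above all 3 controls. In that comparison 0.531% of all probe sets were called (136 higher and 19 lower), against 1 of the 6 chemokines. The call was lost when any control array, LD 2 or LD 3 was left out, with differences of 3.62 to 4.34 and adjusted p up to 0.175. Without LD 1 the difference was 5.47 with an adjusted p of 0.000798.

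Cxcl11, which binds the same receptor, stood at 4.26, 5.90 and 4.80 in PBMLD retinas, 5.44, 5.21 and 5.44 in SafLD retinas and 4.90, 6.20 and 6.50 in LD retinas. It was 4.10, 3.91 and 4.02 with PBM, 3.91, 4.47 and 4.03 with saffron, and 4.28, 4.01 and 4.73 in control. The SafLD and LD retinas were all above the highest unexposed value, and PBMLD retina 1 was again among the unexposed levels. LD exceeded control by 1.52 ± 0.37 (SE), with an adjusted p of 0.0605 that missed the threshold. Cxcl9, the remaining ligand of Cxcr3, was dim. It averaged 4.05 ± 0.24 in PBMLD, 4.26 ± 0.10 in SafLD, 4.52 ± 0.42 in LD, 3.72 ± 0.37 in PBM, 3.89 ± 0.05 in saffron and 3.65 ± 0.41 in control (SD, n = 3 each). Its LD retinas, at 4.04, 4.69 and 4.83, lay just above its controls, at 3.72, 3.22 and 4.02, with a difference of 0.87 ± 0.23 (SE, adjusted p = 0.0847).

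Cxcl1, an attractant of neutrophils, was measured at 6.36, 8.15 and 6.98 in PBMLD retinas, 7.40, 7.58 and 8.82 in SafLD retinas and 7.08, 8.53 and 9.16 in LD retinas. The 9 unexposed retinas spanned a narrow range, from 6.19 to 6.66 in PBM, 6.33 to 6.48 in saffron and 6.27 to 6.38 in control. As with Cxcl10 and Cxcl11, PBMLD retina 1 fell among them and the other light-exposed retinas did not. LD exceeded control by 1.91 ± 0.46 (SE, adjusted p = 0.0563), which missed the threshold. Cxcl2, a close relative with the same receptor, did not follow Cxcl1. It was dim throughout, at 3.84 ± 0.17 in PBMLD, 4.03 ± 0.16 in SafLD, 3.65 ± 0.32 in LD, 3.57 ± 0.06 in PBM, 4.13 ± 0.38 in saffron and 3.49 ± 0.18 in control (SD, n = 3 each). Its LD retinas, at 3.41, 4.01 and 3.54, overlapped its controls, at 3.27, 3.58 and 3.61, and the difference was 0.17 ± 0.18 (SE, 95% interval -0.22 to 0.56, adjusted p = 0.857). Cxcl2 and Cxcl9 were in the dimmest 25% of probe sets by mean level, where a change in RNA moves the intensity less.

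Cxcl12, the constitutive member, averaged 8.44 ± 0.23 in PBMLD, 8.32 ± 0.07 in SafLD, 8.26 ± 0.30 in LD, 8.53 ± 0.14 in PBM, 8.56 ± 0.19 in saffron and 8.69 ± 0.27 in control (SD, n = 3 each). LD retinas at 8.47, 8.40 and 7.93 overlapped control retinas at 8.87, 8.83 and 8.37. The difference of -0.43 ± 0.17 (SE) had an adjusted p of 0.388 and was not called. The mean of Cxcl12 was lower in each light-exposed group than in the unexposed group of the same pretreatment, none of these differences being called.

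**Figure D2:**
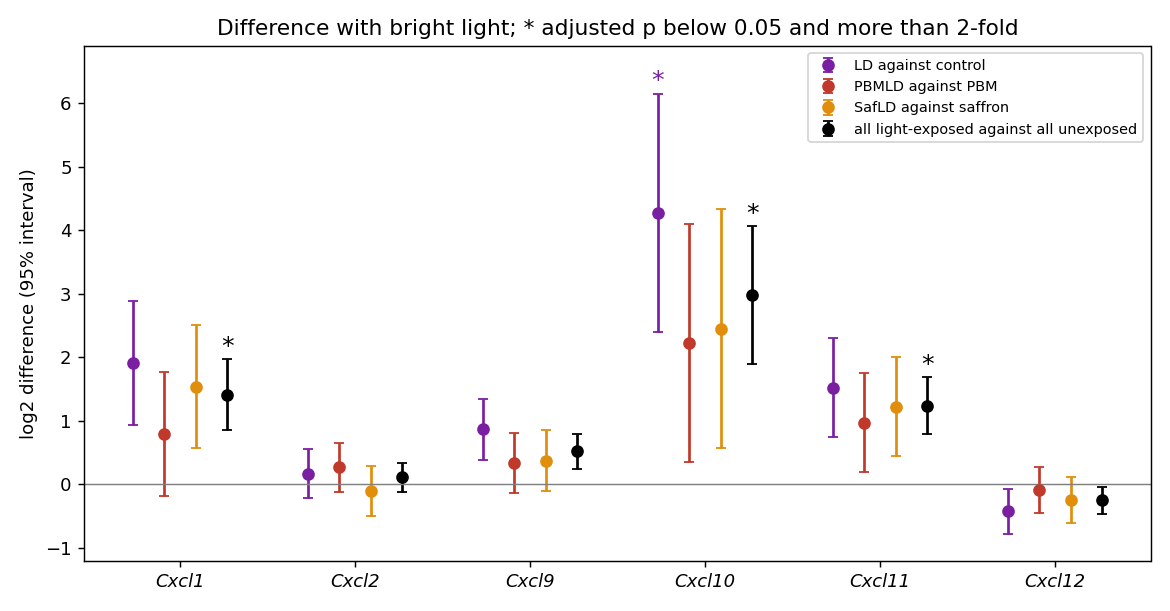
Log2 difference (y axis) with bright light for each chemokine in LD against control, PBMLD against PBM, SafLD against saffron and all light-exposed against all unexposed retinas. Points are limma estimates, bars 95% intervals, and asterisks mark calls: Cxcl10 in LD against control (4.27), and Cxcl1 (1.41), Cxcl10 (2.98) and Cxcl11 (1.24) over all retinas.

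The light effect was then averaged over the 3 pairs of groups, as the mean of LD, PBMLD and SafLD minus the mean of control, PBM and saffron. Cxcl10 was higher by 2.98 ± 0.51 (SE, limma adjusted p = 0.00171), Cxcl1 by 1.41 ± 0.27 (adjusted p = 0.00361) and Cxcl11 by 1.24 ± 0.21 (adjusted p = 0.00172). These 3 of 6 chemokines were called, against 0.421% of all probe sets. The members were listed with earlier results of these data known, so the share called is a description only. All 3 calls held with each of the 18 arrays left out in turn, PBMLD retina 1 included, and the highest adjusted p was 0.00976. Cxcl9 had an adjusted p of 0.0251 with a difference of 0.52 ± 0.13 (SE), short of 2-fold, and its adjusted p went up to 0.0640 with 1 array left out. Cxcl2 differed by 0.11 ± 0.11 and Cxcl12 by -0.25 ± 0.10 (SE, adjusted p = 0.699 and 0.191). The median difference over all probe sets was -0.01.

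Within the pretreated animals the light effect pointed the same way for the 3 called chemokines but passed the test for none of them. PBMLD exceeded PBM by 2.23 ± 0.89 for Cxcl10, 0.79 ± 0.46 for Cxcl1 and 0.97 ± 0.37 for Cxcl11 (SE; adjusted p = 0.494, 0.728 and 0.467). SafLD exceeded saffron by 2.45 ± 0.89, 1.54 ± 0.46 and 1.22 ± 0.37 for the same genes (SE; adjusted p = 0.184, 0.0986 and 0.102). No member was called in PBMLD against PBM (0.147% of all probe sets called) or in SafLD against saffron (0.825%). At an unadjusted p below 0.05 the counts were 2 and 3 of 6, against 8.12% and 14.7% of all probe sets. Without PBMLD retina 1, Cxcl10 exceeded PBM by 3.46 with an adjusted p of 0.0478 and was called.

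Set against control, PBMLD retinas were higher by 2.71 ± 0.89 for Cxcl10, 0.82 ± 0.46 for Cxcl1 and 0.64 ± 0.37 for Cxcl11 (SE; adjusted p = 0.217, 0.509 and 0.523). SafLD retinas were higher than control by 2.95 ± 0.89, 1.59 ± 0.46 and 1.02 ± 0.37 (SE; adjusted p = 0.0891, 0.0755 and 0.163). No member was called in either comparison, in which 0.366% and 0.921% of all probe sets were called. At an unadjusted p below 0.05, 1 of 6 members passed in PBMLD, against 12% of all probe sets, and 6 of 6 in SafLD, against 16.9%, with Cxcl12 lower and the others higher. Without PBMLD retina 1, Cxcl10 was 3.95 above control with an adjusted p of 0.0183.

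The pretreatments were compared directly within light-exposed retinas. PBMLD was below LD by point estimate for Cxcl1 (-1.09, 95% interval -2.07 to -0.12), Cxcl11 (-0.88, -1.66 to -0.10), Cxcl10 (-1.56, -3.44 to 0.32) and Cxcl9 (-0.47, -0.94 to 0.01). None passed after adjustment (limma adjusted p = 0.374, 0.373, 0.527 and 0.439). In SafLD against LD the estimates were -0.32 for Cxcl1 (-1.30 to 0.65), -1.32 for Cxcl10 (-3.20 to 0.56), -0.51 for Cxcl11 (-1.29 to 0.28) and -0.25 for Cxcl9 (-0.73 to 0.22), with adjusted p of at least 0.673. Cxcl2 and Cxcl12 differed by 0.19 and 0.18 in PBMLD and by 0.38 and 0.06 in SafLD relative to LD, none of them called. Over all probe sets 0.216% were called in PBMLD against LD (1 higher and 62 lower) and 0.257% in SafLD against LD (4 higher and 71 lower), with no CXC chemokine among them. At an unadjusted p below 0.05 the counts were 2 and 0 of 6, against 11.5% and 9.55% of all probe sets. The estimates moved with single retinas. In PBMLD against LD, leaving out PBMLD retina 1 gave -0.32 for Cxcl10, -0.69 for Cxcl1 and -0.52 for Cxcl11, and leaving out LD retina 1 gave -2.76, -1.68 and -1.37. Over all arrays left out in turn the ranges were -2.76 to -0.32 for Cxcl10, -1.68 to -0.64 for Cxcl1 and -1.37 to -0.52 for Cxcl11 in PBMLD against LD. In SafLD against LD they were -2.52 to -0.67, -0.91 to 0.13 and -0.99 to -0.19 for the same genes.

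The difference between light effects, (PBMLD minus PBM) minus (LD minus control), was -2.05 ± 1.26 for Cxcl10, -1.13 ± 0.65 for Cxcl1 and -0.55 ± 0.52 for Cxcl11 (SE, adjusted p = 0.999 for each). The corresponding values with saffron were -1.82 ± 1.26, -0.37 ± 0.65 and -0.30 ± 0.52 (SE; adjusted p = 0.885, 0.955 and 0.955). No member was called, nor did any reach an unadjusted p below 0.05, in either test; 0.00685% and 0.14% of all probe sets were called. With 1 array left out the values with PBM ran from -3.24 (without LD 1) to -0.81 (without PBMLD 1) for Cxcl10, from -1.71 (without LD 1) to -0.68 (without LD 3) for Cxcl1 and from -1.03 (without LD 1) to -0.19 (without PBMLD 1) for Cxcl11. With saffron they ran from -3.02 to -1.17, -0.96 to 0.08 and -0.78 to 0.02 for the same genes, in each case without LD 1 and without LD 3. These tests share the LD and control arrays with the comparisons above.

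No chemokine was called with either pretreatment alone. Differences between PBM and control were 0.03 for Cxcl1, 0.09 for Cxcl2, 0.06 for Cxcl9, 0.49 for Cxcl10, -0.33 for Cxcl11 and -0.16 for Cxcl12, with adjusted p of at least 0.799. For Cxcl10 the PBM retinas, at 4.85 to 5.02, all lay above the controls, at 4.31 to 4.60, and the fit gave 0.49 ± 0.89 (SE, 95% interval -1.39 to 2.37) with the spread shared by all groups. Saffron retinas, at 4.66 to 5.38, were above the same controls, so both separations rest on the same control arrays. Saffron differed from control by 0.65 ± 0.18 (SE) for Cxcl2, whose saffron retinas at 4.07, 4.54 and 3.79 were above every control at 3.27, 3.58 and 3.61. Its unadjusted limma p was 0.00261 and its adjusted p 0.989. An exact permutation test of 3 against 3 arrays cannot go below 0.1, so separated values alone show little. The share of all probe sets separated in this way was not counted. The remaining members differed by -0.20 to 0.50 with saffron. In these comparisons 0.133% and 0% of all probe sets were called, and 0 and 1 of the 6 members had an unadjusted p below 0.05, against 9.96% and 4.6% of all probe sets.

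The order of group means was the same for Cxcl1, Cxcl9 and Cxcl10: LD, SafLD, PBMLD, saffron, PBM and control, from high to low. Cxcl11 shared the first 3 places, followed by control, saffron and PBM. Neighbours in these orders overlapped in their single values, with PBM above control for Cxcl10 as the exception. Cxcl12 ran from control and saffron through PBM, PBMLD and SafLD to LD. Cxcl2 had a different order, with saffron and SafLD highest and PBM and control lowest.

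**Figure D3:**
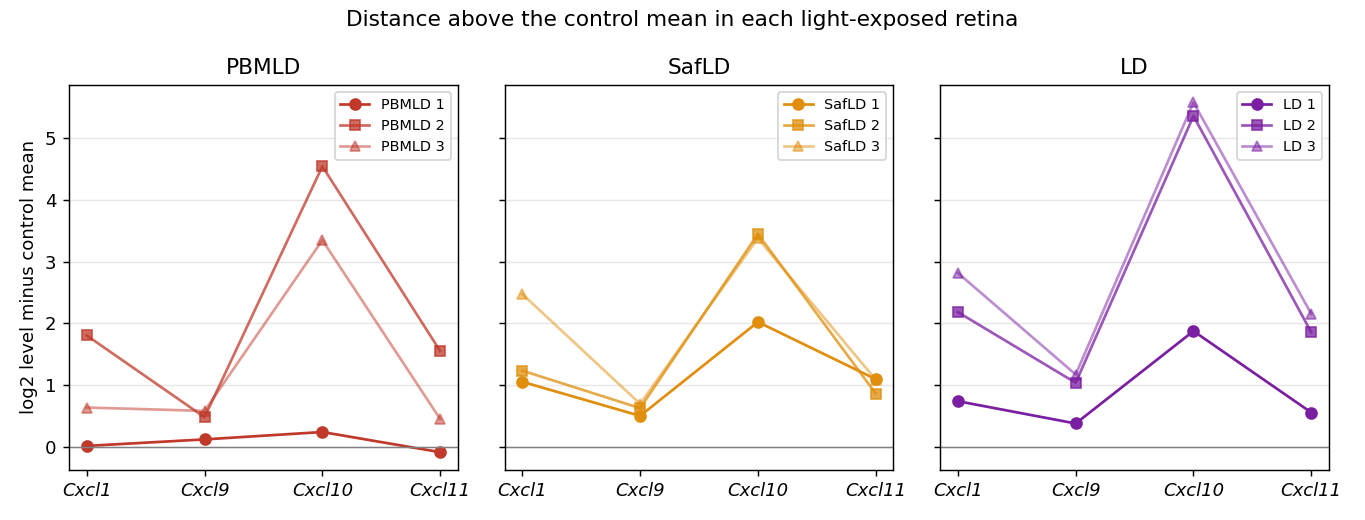
Log2 level minus the control mean (y axis) of Cxcl1, Cxcl9, Cxcl10 and Cxcl11 in each light-exposed retina; lines join the values of 1 retina. PBMLD 1 stayed between -0.08 and 0.24, and LD 1 was the lowest LD retina for all 4 genes.

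Retina 1 was the lowest of its group for Cxcl1, Cxcl9, Cxcl10 and Cxcl11 in both PBMLD and LD, but not for all 4 genes in SafLD. Relative to the control mean, PBMLD retina 1 was at 0.02 for Cxcl1, 0.12 for Cxcl9, 0.24 for Cxcl10 and -0.08 for Cxcl11. PBMLD retina 2 was at 1.81, 0.48, 4.54 and 1.56 for the same genes, and PBMLD retina 3 at 0.64, 0.59, 3.35 and 0.45. LD retina 1, with 1.88 for Cxcl10, was likewise below LD retinas 2 and 3, with 5.36 and 5.58, and it was the lowest LD retina for the other 3 genes. In SafLD, retina 1 was lowest for Cxcl1 (1.06, 1.24 and 2.48), Cxcl9 (0.50, 0.63 and 0.70) and Cxcl10 (2.02, 3.45 and 3.38) and highest for Cxcl11 (1.10, 0.87 and 1.09). Across the 18 arrays, and so with the differences between the 6 groups included, Pearson's r was 0.926 between Cxcl1 and Cxcl10, 0.932 between Cxcl1 and Cxcl11, and 0.909 between Cxcl10 and Cxcl11. Cxcl9 had r of 0.806 to 0.832 with these 3, Cxcl2 at most 0.228 with any member, and Cxcl12 was negative with all 5.

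PBMLD retina 1 was not at unexposed levels for every gene that differed with light. Of the 15 other genes named in the text that were called higher in LD against control or over all light-exposed retinas, 9 lay within the range of the 9 unexposed retinas there, 4 above it and 2 below it. This count was made after the values were seen. Among the 15, Rdh10, Birc3, Tnfrsf9, Gbp5, Pvr, Mt2A, Lcn2 and Mmp3 were those most like a called chemokine over these same arrays. Their position in PBMLD retina 1 is thus tied to how they were picked. The same count over all probe sets called with light is not given here, so the count does not describe light-responsive genes at large. Irf9, a subunit of the factor that carries type I interferon signals to the nucleus, was above, at 8.06 against 6.91 to 7.50 in unexposed retinas. Gfap, an intermediate filament that Müller cells raise under stress, was above as well, at 8.54 against 6.23 to 7.27. Irf1, an interferon-induced transcription factor, was within, at 6.17 against 5.80 to 6.62, and Nfkb2, an NF-kB subunit, was below, at 5.55 against 5.66 to 6.12.

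The retinas can also be read through the genes whose levels most resembled those of a called chemokine over the 18 arrays. For Cxcl10 these were Tnfrsf9 (r = 0.980), a costimulatory receptor of activated T cells, Gbp5 (0.972), an interferon-induced GTPase, and Pvr (0.966), a nectin-like adhesion receptor. For Cxcl1 they were Rdh10 (0.964), a retinol dehydrogenase, Birc3 (0.960), an inhibitor of apoptosis in NF-kB signalling, and Tnfrsf9 (0.958). For Cxcl11 they were Mt2A (0.961), a metallothionein, Lcn2 (0.956), a siderophore-binding protein of the acute response, and Mmp3 (0.955), a matrix metalloproteinase. Gbp5 showed the same retinas apart as Cxcl10, at 4.31, 7.27 and 6.68 in PBMLD and 5.96, 8.08 and 8.86 in LD, against 5.13, 4.86 and 4.33 in control. The likeness was chosen over all genes and is a description only.

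The genes lie in clusters. In the RefSeq annotation of the rat (GRCr8), Cxcl11, Cxcl10 and Cxcl9 are adjacent protein-coding genes on chromosome 14, Cxcl2 and Cxcl1 are adjacent on the same chromosome, and Cxcl12 is on chromosome 4. The 250 bases before the RefSeq start of each gene were searched on both strands for the NF-kB consensus, the interferon-stimulated response element core (GAAA and GAAA parted by 2 bases) and the gamma-activated site (TTCNNNGAA). The 4 promoters with a match are shown because they include the 3 called chemokines and Cxcl2, the neighbour of Cxcl1 that was not called. Cxcl1 is at chr14:17479322-17479571 and Cxcl2 at chr14:17467256-17467505, both on the minus strand. Cxcl10 is at chr14:15988816-15989065 and Cxcl11 at chr14:15973478-15973727, both on the plus strand. Capitals mark the matches, 5′ to 3′ on the strand of the gene, and the last base lies next to the start.
Cxcl1: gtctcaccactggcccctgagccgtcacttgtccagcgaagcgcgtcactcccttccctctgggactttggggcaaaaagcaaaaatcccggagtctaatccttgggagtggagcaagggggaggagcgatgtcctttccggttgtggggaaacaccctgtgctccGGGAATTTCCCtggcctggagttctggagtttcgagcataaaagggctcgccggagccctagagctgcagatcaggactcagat
Cxcl2: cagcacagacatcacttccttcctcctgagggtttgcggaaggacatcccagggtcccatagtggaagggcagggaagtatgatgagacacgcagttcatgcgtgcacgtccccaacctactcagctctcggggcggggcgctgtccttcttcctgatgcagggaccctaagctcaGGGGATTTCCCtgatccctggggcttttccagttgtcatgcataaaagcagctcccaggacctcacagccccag
Cxcl10: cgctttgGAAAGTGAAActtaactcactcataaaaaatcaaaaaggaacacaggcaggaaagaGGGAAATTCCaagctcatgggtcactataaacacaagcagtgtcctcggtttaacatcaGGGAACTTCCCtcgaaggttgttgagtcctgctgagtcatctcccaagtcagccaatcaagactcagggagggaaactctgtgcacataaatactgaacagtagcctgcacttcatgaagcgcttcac
Cxcl11: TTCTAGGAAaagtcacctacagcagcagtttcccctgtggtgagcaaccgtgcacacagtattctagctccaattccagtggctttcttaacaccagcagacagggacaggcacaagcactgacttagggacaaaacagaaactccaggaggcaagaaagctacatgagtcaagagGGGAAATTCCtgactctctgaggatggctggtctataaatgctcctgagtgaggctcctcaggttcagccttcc

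The NF-kB consensus was found in Cxcl1 at bases 84 to 75 before the start, in Cxcl2 at 74 to 65, in Cxcl10 at 187 to 178 and at 128 to 119, and in Cxcl11 at 74 to 65. In Cxcl1, in Cxcl2 and in the copy of Cxcl10 nearer the start, a further match on 1 or both strands overlapped it, shifted by 1 base. Cxcl10 also held the interferon-stimulated response element core at 243 to 234, and Cxcl11 the gamma-activated site at 250 to 242. Cxcl9 and Cxcl12 held no match in this window. Of 33469 rat promoters of the same length, 6.33% held the NF-kB consensus, 3.41% the response element core and 7.67% the gamma-activated site. A match is a description of the letters, and Cxcl2, which was not called, carries the NF-kB match as well as Cxcl1.

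**Figure D4:**
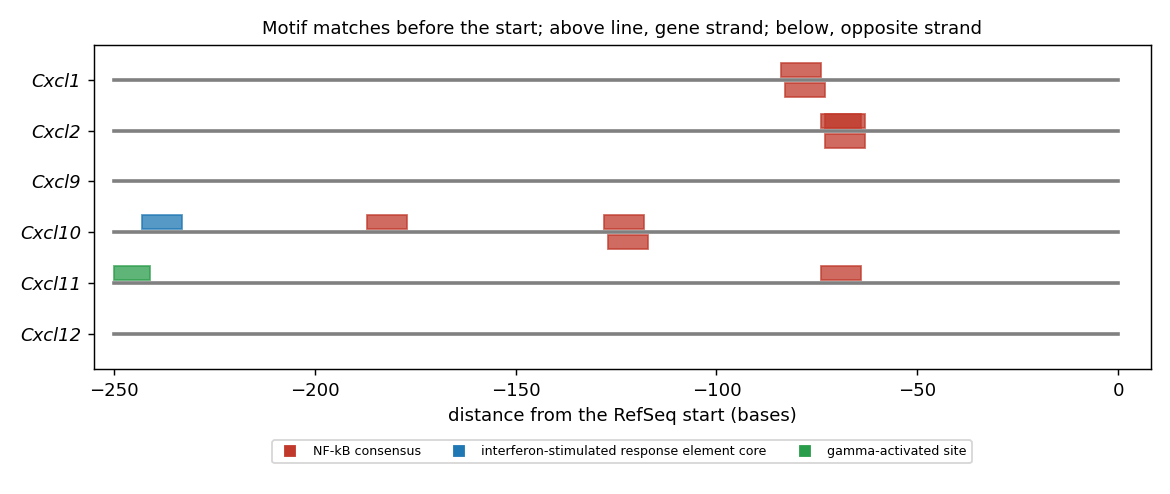
Matches to the 3 motifs in the 250 bases before the start of each of the 6 genes (x axis, distance from the RefSeq start in bases), with the strand of the gene above the line and the opposite strand below. Cxcl1, Cxcl2, Cxcl10 and Cxcl11 hold NF-kB matches; Cxcl9 and Cxcl12 hold none of the 3 motifs.

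Interferon signalling genes were measured for 12 of 14 listed. This list and those below were drawn up with earlier results of these data known. In LD against control, 2 were called higher and none lower, where 0.531% of all probe sets were called. The median was 0.31 over the list against -0.02 over all probe sets. Irf9 stood at 8.06, 8.54 and 8.71 in PBMLD retinas, 8.82, 9.27 and 9.22 in SafLD retinas and 8.88, 9.72 and 9.76 in LD retinas, against 7.12, 7.35 and 6.91 in control. It rose by 2.33 ± 0.23 in LD (SE, limma adjusted p = 2.95e-05). Irf1 rose by 1.35 ± 0.24 (adjusted p = 0.00739), and Irf7, another interferon regulatory factor, differed by 0.72 ± 0.25 (adjusted p = 0.261). Over all light-exposed against all unexposed retinas Irf9 and Irf1 were again the genes called, at 1.86 ± 0.13 and 1.00 ± 0.14. In that comparison 0.421% of all probe sets were called.

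Of 18 listed genes of NF-kB signalling and its inducing cytokines, 15 were measured. In LD against control 4 were called higher and none lower, with a median of 0.83, where 0.531% of all probe sets were called. Nfkb2 rose by 1.67 ± 0.32 (SE, adjusted p = 0.0116), Myd88, an adaptor of Toll-like and interleukin receptors, by 1.27 ± 0.25 (adjusted p = 0.0150), and Nfkbiz and Nfkbie by 1.15 ± 0.19 and 1.05. Il1b, a cytokine that drives NF-kB, differed by 1.22 ± 0.30 (adjusted p = 0.0623). Over all retinas, 1 of the 15 was called (Nfkb2, 1.10 ± 0.18), against 0.421% of all probe sets, and the median was 0.59.

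**Figure D5:**
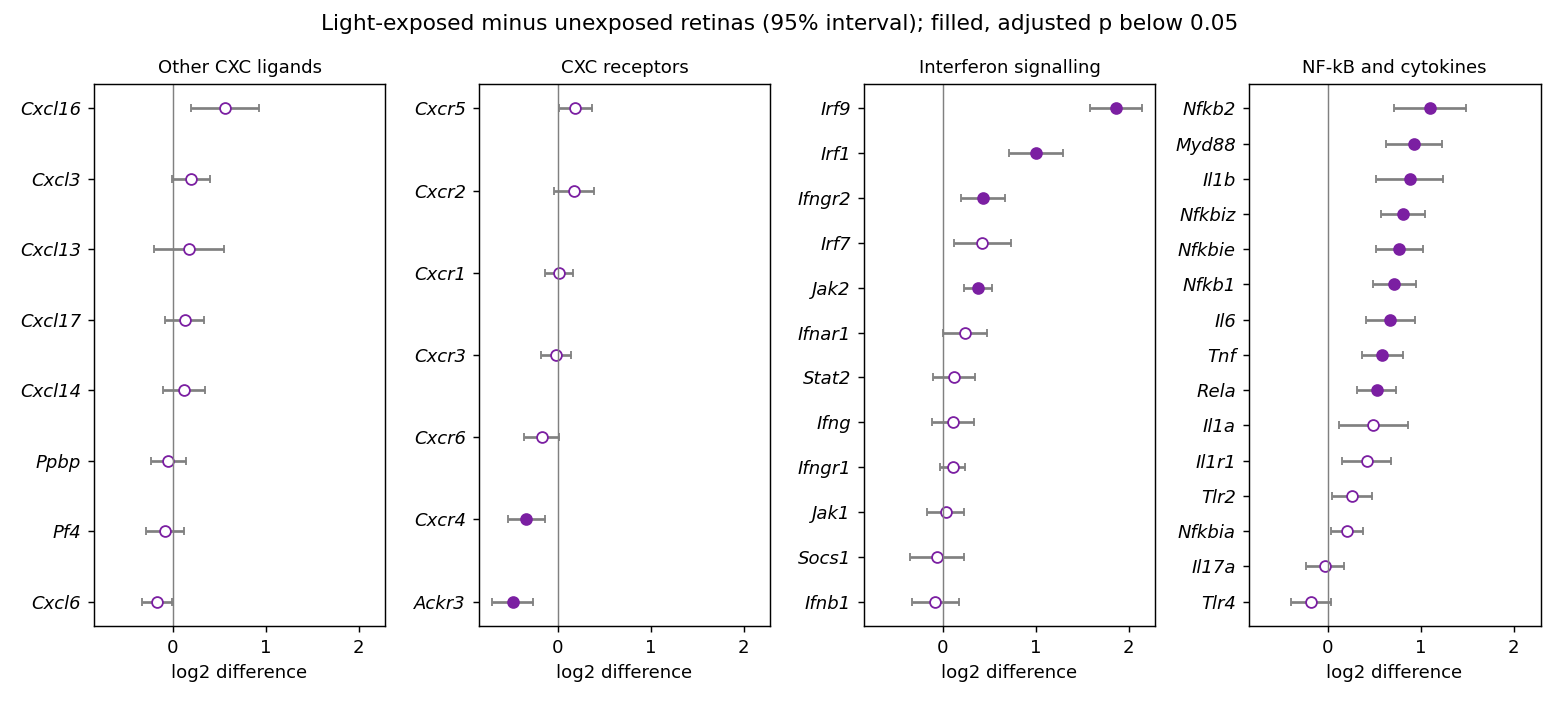
Log2 difference (x axis) between all light-exposed and all unexposed retinas for the measured genes of 4 lists: other CXC ligands, CXC receptors, interferon signalling, and NF-kB with its cytokines. Points are limma estimates with 95% intervals and filled points have an adjusted p below 0.05; Irf9 lies at 1.86, Nfkb2 at 1.10 and Ackr3 at -0.48.

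The other CXC ligands did not pass the test. Of 9 listed, 8 were measured and 0 were called in LD against control or over all retinas, with medians of 0.07 and 0.13. The shares of all probe sets called were 0.531% and 0.421%. The ligand with the highest estimate was Cxcl16, a membrane-bound chemokine for Cxcr6, at 0.92 ± 0.30 in LD against control (SE, adjusted p = 0.222). Its retinas were at 6.95, 8.10 and 7.87 in PBMLD, 7.85, 7.91 and 7.86 in SafLD and 7.63, 8.80 and 8.88 in LD, against 7.68, 7.40 and 7.45 in control. Cxcl13, an attractant of B cells, differed by 0.51 and Cxcl6 by -0.39, neither called.

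Of 10 listed receptor symbols 7 were measured, and none was called in either comparison (medians -0.06 and -0.02). Ackr3, which takes up Cxcl12, differed by -0.65 ± 0.18 in LD against control (SE, adjusted p = 0.123) and by -0.48 ± 0.11 over all retinas (adjusted p = 0.0111). Cxcr4, the signalling receptor of Cxcl12, differed by -0.35 ± 0.16 (adjusted p = 0.498) and by -0.34 ± 0.09 (adjusted p = 0.0442). Both passed the adjusted p over all retinas at less than 2-fold, with the same sign as the estimate of their ligand. Cxcr3, the receptor of Cxcl9, Cxcl10 and Cxcl11, differed by -0.02 in LD against control, and Cxcr2, the receptor of Cxcl1 and Cxcl2, by 0.09. Cxcr2 was very dim, at a mean percentile of 8.02 on the LD arrays and 7.11 on the control arrays. Cxcr3 was at 33.3 and 33.4.

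Markers of cells that answer or make these chemokines were set beside them, in LD against control, where 0.531% of all probe sets were called. Of 10 neutrophil markers, 1 was called in LD against control, Lcn2 at 3.48 ± 0.65 (SE, adjusted p = 0.0106), while Mpo, Elane, Ltf, Camp, S100a8 and S100a9 differed by -0.35 to 0.21; the mean of the list ran from 4.49 to 4.87 in LD and from 4.22 to 4.40 in control. The median difference over the list was 0.01, and the gap between these means rests on Lcn2. Stressed glia can make Lcn2 too, and which cells made it here was not tested. Of 11 T and natural killer cell markers none was called, with a median of 0.00 and list means of 4.23 to 4.56 in LD and 4.26 to 4.41 in control. Several neutrophil and T cell markers were dim, such as S100a8 and Cd3g, at mean percentiles of 4.67 and 11.4 in LD. Whether such cells entered the retina was not tested. Of 12 microglia and macrophage markers none was called higher and 1 was called lower, P2ry12, a receptor of resting microglia (-1.04 ± 0.24, adjusted p = 0.0419). Cd14, a coreceptor of monocytes, and Ptprc, a leukocyte surface marker, had estimates of 0.77 ± 0.28 and 0.68 ± 0.27 that were not called (SE; adjusted p = 0.298 and 0.379). Cd14 was at 5.77 to 6.86 in LD and 5.52 to 5.76 in control, and the microglia list had means of 5.55 to 5.76 in LD and 5.63 to 5.75 in control. The median difference over the microglia list was -0.15, so most of it did not share the sign of Cd14 and Ptprc. Of 7 Müller cell markers only Gfap was called (3.27 ± 0.27, adjusted p = 7.25e-06), and none of 7 endothelial or 6 rod markers was, the rod list averaging 12.3 to 12.7 in LD and 12.8 to 12.9 in control. The median difference over the rod list was -0.10. Within it, Nrl was at 11.22, 11.24 and 9.82 in LD and at 11.78, 11.97 and 11.78 in control.

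Tissue from outside the neural retina varied between arrays. The mean of 9 lens markers was 12.44, 10.02 and 12.29 in LD retinas 1, 2 and 3 and 10.2 to 10.6 in control retinas, where Cxcl10 was 6.35, 9.83 and 10.05 in LD and 4.31 to 4.60 in control. In PBMLD retinas 1, 2 and 3 the lens mean was 11.44, 10.502 and 10.63, and in SafLD retinas 11.02, 10.36 and 9.93. Retina 1 thus had the highest lens mean, and the lowest Cxcl1 and Cxcl10, in each light-exposed group. LD retina 3, however, had a lens mean of 12.29 and the highest Cxcl10 of its group. Among saffron retinas, retina 1 had the highest lens mean (11.78) and the highest Cxcl10 (5.38). The mean of 5 pigment epithelium markers ran from 5.35 to 6.21 in LD and from 4.71 to 5.69 in control, and that of 3 blood markers from 5.65 to 6.13 in LD and from 6.04 to 6.24 in control. None of these 3 lists had a called gene in LD against control. In PBMLD retinas 1, 2 and 3 the pigment epithelium markers were at 4.35, 5.87 and 5.04, the same order as Cxcl1, Cxcl10 and Cxcl11 there. In SafLD they were at 5.46, 4.54 and 5.10, the same order as Cxcl11 (5.443, 5.209 and 5.435) but not as Cxcl1 or Cxcl10. In LD they were at 6.003, 5.35 and 6.21, an order that none of Cxcl1, Cxcl10 and Cxcl11 shared. The part of lens and pigment epithelium in the chemokine levels was not tested.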

How the data were processed

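Each of 18 retinas was hybridised to an Affymetrix rat Gene 1.0 ST array. The authors deposited log2 intensities made by RMA (background correction, quantile normalization, median polish), per the submitters' processing notes with Affymetrix Expression Console 1.1.2800.19935, and these steps were kept. They lie between 1.37 and 14.0, and the medians of the arrays between 6.12 and 6.19. Of 29214 probe sets, 15310 had 1 symbol in the platform annotation, 323 several and 13581 none; a gene with more than 1 probe set was represented by its brightest. The number of arrays limits the precision. The study describes the retinas as coming from different animals; the labels give no sex, slide or scan date.

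A limma model (version 3.58.1, R 4.3.3) of the group means was fitted over all arrays and probe sets (12 residual degrees of freedom, prior 5.05, two-sided, Benjamini-Hochberg adjustment over all probe sets), and calls needed an adjusted p below 0.05 and more than 2-fold, the fold limit of the study's methods. An exact permutation test of 3 against 3 arrays cannot go below 0.1 and was not used. The share of all probe sets whose groups did not overlap was not counted, so separated groups are descriptions only. The fit was tested on simulated data with planted changes. Promoters came from RefSeq (GRCr8), and all 6 members matched. The members, lists and tests were chosen with earlier results of these data known. The genes named are the 6 members, up to 3 genes of each list with the greatest difference in LD against control, and the 3 genes most like each called member over the arrays; Cxcr2 and Cxcr3, the neutrophil markers beside Lcn2, and Nfkbie were added after their values were seen. Alternatives changed the test (the study's t-test; limma with a trended, robust variance; array weights; no fold limit), the arrays (the groups compared without the others; each array left out), the normalization (centring on medians, quantile, cyclic loess), a filter on the dimmest 25% of probe sets, and a block for the replicate number.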

Additional observations from a re-analysis of the deposited data

How the results depend on the processing

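The number of chemokines called over all light-exposed against all unexposed retinas, 3, stayed at 3 under every alternative run for it except that without a fold limit, where Cxcl9 made it 4. In LD against control the count moved with the setting: it was 3 by the methods' t-test unadjusted and 0 by the same test adjusted, 0 in the fit of the compared groups alone and with a variance trend, 2 with array weights and with cyclic loess, 3 without the dim probe sets and 3 with the replicate block, and it ranged from 0 to 4 with 1 array left out (4 without LD 1). In SafLD against control, where the count was 0, it was 3 by the unadjusted t-test, 3 in the compared groups alone and 3 with array weights; in SafLD against saffron the same settings gave 3, 2 and 2. With 1 array left out it ranged from 0 to 1 in PBMLD against control and in PBMLD against PBM, in both cases Cxcl10 without PBMLD 1. Over all probe sets, samples of the same number did not deviate together (45 pairs, median r = -0.046, range -0.386 to 0.306). That check does not cover single genes, and retina 1 was the lowest for Cxcl1, Cxcl9 and Cxcl10 in each light-exposed group. Whether arrays of the same number share more than that number was not tested.

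By the methods' t-test Cxcl10 in PBM against control had an unadjusted p of 0.00878 and an adjusted p of 0.235 at a difference of 0.49, and over its alternatives in limma the adjusted p ran from 0.142 to 0.950. Differences near 0 changed sign. With array weights Cxcl12 was -0.0183 in PBMLD against LD and -0.0446 in SafLD against LD, Cxcl1 0.13 in SafLD against LD, Cxcl2 -0.0164 in the difference of light effects with PBM, and Cxcl1 and Cxcl11 0.11 and 0.0048 in that with saffron. Cxcl9 in PBM against control was -0.0172 after quantile normalization and -0.0133 after cyclic loess. With 1 array left out the ranges crossed 0 for Cxcl1 (-0.11 to 0.13), Cxcl2 (-0.0181 to 0.15) and Cxcl9 (-0.15 to 0.25) in PBM against control, for Cxcl2 in LD against control (-0.0106 to 0.29) and SafLD against saffron (-0.27 to 0.10), for Cxcl1 (-0.91 to 0.13) and Cxcl12 (-0.11 to 0.16) in SafLD against LD, for Cxcl2 in the difference of light effects with PBM (-0.0230 to 0.28), and for Cxcl1 (-0.96 to 0.0775) and Cxcl11 (-0.78 to 0.0153) in that with saffron. The cause was not tested. The t-test was not run for contrasts of more than 2 groups, the dim filter removes Cxcl2 and Cxcl9, and no member has another probe set.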

Other observations

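In PBMLD retina 1, genes beside the chemokines lay on either side of their unexposed range. Mt2A, a metallothionein, was at 9.40 there, above 8.38 to 9.08 in the 9 unexposed retinas, and Mmp3, a matrix metalloproteinase, at 4.61, above 3.89 to 4.30. Lcn2 at 7.49 was within its range of 6.98 to 8.32, and Gbp5 at 4.31 was just below its lowest unexposed value of 4.33. These genes were picked after their values were seen, and all of them were among the genes most like a called chemokine over the same arrays.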
